A study of Mus musculus with 9 samples.

Results

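Pf4 and 9 other genes that are used as markers of platelets and of megakaryocytes, the cells that platelets are shed from, were examined in bulk RNA-seq libraries of sorted mouse liver macrophages. The 10 genes (Pf4, Ppbp, Itga2b, Itgb3, Gp1ba, Gp1bb, Gp9, Clec1b, Treml1 and Tubb1) were chosen by symbol, and all 10 are among the 23413 genes of the count table. The question was whether Pf4 followed platelet transcripts or macrophage genes from library to library. The libraries came from C57BL/6 male mice placed at 5 weeks of age on normal chow (NC, the normal diet of the labels) or a high-fat diet (HFD) for 8 weeks. The 2 NC libraries were from mice with no listed treatment, 3 libraries were from HFD-fed mice given vehicle, and 4 were from HFD-fed mice given DPI (diphenyleneiodonium, a flavoenzyme inhibitor that the study used as an agonist of GPR3) at 2 mg/kg every 5 days from week 3. The treatment note attached to the samples instead describes exposure of the purified cells to 500 nM DPI or DMSO for 24 h, so the route of treatment differs between the sources. Each library is labelled as 1 mouse. Livers were digested and F4/80+CD11b+Gr1low cells were sorted, a gate that the study describes as holding mainly Kupffer cells (KCs), the resident macrophages of the liver.

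Platelets have no nucleus and carry RNA made in the megakaryocyte, in which Pf4 and Ppbp are among the most abundant transcripts. Pf4 encodes the chemokine CXCL4, which is stored in the alpha granules of platelets and released on activation. Pf4 transcripts are also known from tissue macrophages, and Clec1b is known from mouse KCs as well as from platelets, so neither gene on its own marks a platelet. The remaining members are closer to platelets, except Itgb3, whose product pairs with more than one alpha integrin subunit and is found on many cells.

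Total counts were 3534325 to 15585775 per library, with the deepest and the shallowest library both in the DPI group, and 27.0% to 44.5% of the counts fell on the ribosomal RNA precursor Rn45s. A gene was treated as detected above 3 counts, which were worth 0.184 CPM (counts scaled to a fixed library size with edgeR's TMM factors) in the deepest library and 1.02 CPM in the shallowest. Clec4f, a defining KC gene, was uneven, with 0 and 244 counts on NC, 42, 0 and 0 under vehicle, and 219, 6, 4 and 6 under DPI. Vsig4 was at 0 in 5 of the 9 libraries, Timd4 at 0 in 5, and Marco had 1 count in all. Of the other KC genes listed, Id3, Nr1h3, Slc40a1 and Spic were counted in all 9 libraries, and Cd5l in 7. Of the 11 KC genes, 5 to 11 had a count in each library, and the whole list summed to 238 to 265 CPM on NC, 500 to 990 CPM under vehicle and 278 to 550 CPM under DPI, mostly Id3. The monocyte gene Ly6c2 had at least 2422 counts in every library.

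Pf4 lies on chromosome 5 of GRCm38 (mm10), at 90772435 to 90773383 on the plus strand, and Ppbp, which encodes another platelet chemokine precursor, lies at 90768518 to 90770063 on the same strand. Pf4 starts 2371 bases after the end of Ppbp. The annotated exons of these neighbours do not overlap, so a count of one is not a count of the other. The 250 bases before the RefSeq start of Pf4 and Ppbp are shown because their levels are compared below, and those of Clec1b because it was the tested member most like Pf4. Capitals mark GATAA, the core of the site bound by GATA factors, and GGAAG, the core of the site bound by ETS factors, on either strand (TTATC and CTTCC on the strand shown). No match of one motif overlapped a match of the other. The sequences are from RefSeq (GRCm38.p6), 5′ to 3′, for chr5:90772185-90772434 (+), chr5:90768268-90768517 (+) and chr6:129397047-129397296 (+).
Pf4: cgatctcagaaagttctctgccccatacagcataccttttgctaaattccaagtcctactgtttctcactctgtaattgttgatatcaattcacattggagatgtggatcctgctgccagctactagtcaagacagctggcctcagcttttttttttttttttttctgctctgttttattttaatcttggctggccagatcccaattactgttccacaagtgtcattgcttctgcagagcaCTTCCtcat
Ppbp: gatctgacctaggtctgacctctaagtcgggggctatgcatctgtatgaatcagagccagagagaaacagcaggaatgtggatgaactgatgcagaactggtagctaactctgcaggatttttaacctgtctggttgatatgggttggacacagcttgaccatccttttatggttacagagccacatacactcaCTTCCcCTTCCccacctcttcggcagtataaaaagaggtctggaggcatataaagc
Clec1b: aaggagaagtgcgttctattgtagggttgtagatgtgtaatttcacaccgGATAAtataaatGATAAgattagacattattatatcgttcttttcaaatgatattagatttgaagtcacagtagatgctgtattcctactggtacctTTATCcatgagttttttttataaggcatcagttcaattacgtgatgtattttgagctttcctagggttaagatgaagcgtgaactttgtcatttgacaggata
The Pf4 window held 1 GGAAG match, at 9 to 5 bases before the start, and the Ppbp window held 2, while neither held GATAA. The Clec1b window held 3 GATAA matches and no GGAAG. Of the 9 members with a RefSeq promoter (Itgb3 has no entry in the table used), 3 held GATAA, namely Clec1b, Gp9 and Gp1ba, against 22.6% of 32851 promoters of the same length, and 8 held GGAAG, against 64.1%. Both motifs were present in 2 of the 9, against 13.2% of all promoters. These matches describe letters in a fixed window and were not tested for binding.

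Pf4 was the most abundant of the 10 genes per length of transcript and was present in 8 of 9 libraries. Its counts were 25 and 87 on NC, 51, 19 and 0 under vehicle, and 264, 32, 36 and 28 under DPI. Scaled for depth, NC replicate 2 and DPI replicate 1 were level at 16.2 CPM, while vehicle replicate 3 was at 0, below a limit of 0.742 CPM for 3 counts. The group mean was 10.4 ± 8.25 CPM on NC (SD, n = 2), 4.92 ± 5.80 CPM under vehicle (SD, n = 3) and 9.13 ± 5.71 CPM under DPI (SD, n = 4), and the ranges of all 3 groups overlapped. Divided by the length of its exons, Pf4 averaged 11.1 CPM per kb over the 9 libraries. Clec1b followed at 1.15 and Itgb3 at 0.968 CPM per kb, and the other 7 genes lay between 0 and 0.426 CPM per kb, where single libraries set the order. In bulk samples, fewer cells of a type and less RNA per cell cannot be told apart.

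**Figure D1:**
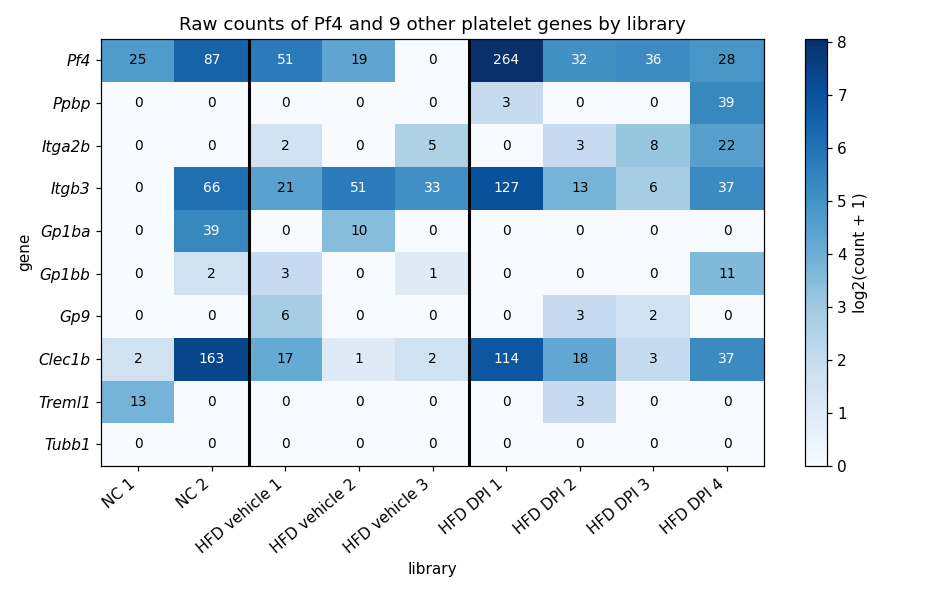
Raw counts (numbers in the cells, shaded by log2 of the count plus 1) of the 10 genes in rows and the 9 libraries in columns, with black lines between NC, HFD vehicle and HFD DPI. Pf4 was counted in 8 libraries, Ppbp only in DPI replicates 1 and 4, and Tubb1 in none.

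Ppbp was nearly absent where Pf4 was present. No Ppbp count was found in the 2 NC and 3 vehicle libraries, and the DPI libraries had 3, 0, 0 and 39. DPI replicate 4 thus held 39 of the 42 Ppbp counts in the series. It was also the library with the second lowest Pf4 level, 2.85 CPM. Of the counts on Ppbp and Pf4 together, Ppbp took 58.2% in that library (95% exact binomial interval 45.5% to 70.2%, 67 counts). In DPI replicate 1, which had the most Pf4 counts, the share was 1.12% (0.232% to 3.25%, 267 counts). NC replicate 2 had 0 of 87, with an exact upper limit of 4.15%, and vehicle replicate 1 had 0 of 51, with an exact upper limit of 6.98%. Over all libraries the share was 7.19% (5.23% to 9.60%, 584 counts), and without DPI replicate 4 it was 0.580% (0.120% to 1.69%, 517 counts). The intervals describe counting error alone, because reads copied by PCR cannot be traced to single molecules. These libraries are single mice, and the difference between their shares was not tested.

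The subunits of the platelet fibrinogen receptor were seen unequally. Itga2b, which encodes CD41, the alpha subunit restricted to the megakaryocyte lineage and early progenitors (chromosome 11, 102453297 to 102470122, minus strand), had 0 and 0 counts on NC, 2, 0 and 5 under vehicle, and 0, 3, 8 and 22 under DPI. Its highest count was again in DPI replicate 4. Itgb3, the beta-3 subunit (chromosome 11, 104608000 to 104670476, plus strand), had 0 and 66 counts on NC, 21, 51 and 33 under vehicle, and 127, 13, 6 and 37 under DPI. In DPI replicate 1, none of 127 counts on the pair were Itga2b, with a 95% exact upper limit of 2.86% for its share. In DPI replicate 4, 37.3% of 59 counts were Itga2b (95% exact binomial interval 25.0% to 50.9%). Itgav, the gene of the alpha-V subunit, with which beta-3 also pairs, was added after its values were seen and had 52 to 266 counts, at least 52 in every library. Itgb3 was thus present without Itga2b in NC replicate 2, vehicle replicate 2 and DPI replicate 1.

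The von Willebrand factor receptor was detected in pieces, with no library holding all 3 of its subunit genes. Gp1ba, the ligand-binding subunit, had 39 counts in NC replicate 2 and 10 in vehicle replicate 2, and 0 in the other 7 libraries. Gp1bb had 0 and 2 counts on NC, 3, 0 and 1 under vehicle, and 0, 0, 0 and 11 under DPI. Gp9 had 6 counts in vehicle replicate 1, 3 and 2 in DPI replicates 2 and 3, and 0 elsewhere. The libraries with Gp1ba and those with Gp9 were not the same, and no fold is given for genes at 0 in most libraries. Gp1bb also shares 1902 bases on the same strand with Sept5, which had 15 counts in DPI replicate 3 and 0 in DPI replicate 4, so its counts are uncertain.

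Clec1b, which encodes CLEC-2, the receptor for podoplanin (chromosome 6, 129397297 to 129409335, plus strand), had 2 and 163 counts on NC, 17, 1 and 2 under vehicle, and 114, 18, 3 and 37 under DPI. NC replicate 2 stood far above NC replicate 1, at 30.4 and 0.364 CPM, so the NC mean of 15.4 CPM rests on 1 library. Clec1b shares 474 bases with Clec9a, a dendritic cell gene with 0 counts in vehicle replicate 2 and 8 to 40 elsewhere. Treml1, the gene of an alpha granule receptor, had 13 counts in NC replicate 1, 3 in DPI replicate 2 and 0 in the other 7 libraries. Tubb1, the beta-1 tubulin of the platelet marginal band, had no count in any library, which allows up to 0.184 CPM in the deepest one.

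Only 3 of the 10 members (Pf4, Clec1b and Itgb3) passed the filter on low counts and entered the test, among 11393 genes. Summed over the other 7, the counts were 13 and 41 on NC, 11, 10 and 6 under vehicle, and 3, 9, 10 and 72 under DPI. In CPM, the 7 together were highest in NC replicate 2 (7.64 CPM) and DPI replicate 4 (7.33 CPM) and lowest in DPI replicate 1 (0.184 CPM). Pf4 was level at 16.2 CPM in NC replicate 2 and DPI replicate 1, the libraries with the highest and the lowest sum. DPI replicate 4 also had the highest summed level of the neutrophil genes, 4932 CPM against 666 to 3511 CPM in the other 8 libraries, with 18609 counts of S100a8, and the most counts of the B cell gene Cd79a, 2138. The F4/80+CD11b+Gr1low sort is one that should remove Gr1-high neutrophils and B cells, and the part of such cells in the platelet counts of that library was not tested.

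The effect of HFD was asked first, by comparing vehicle-treated HFD-fed mice with NC. Pf4 differed by a log2 fold change of -1.07 (SE 1.20), which did not pass (adjusted p = 0.765 after Benjamini-Hochberg adjustment of edgeR's quasi-likelihood test), and Itgb3 differed by 0.26 (SE 1.32). Clec1b fell by 3.37 on the log2 scale (SE 1.50, unadjusted p = 0.0424 by the same edgeR fit), which passed the study's threshold of an unadjusted p under 0.05 and at least a 2-fold change, but not the adjustment (adjusted p = 0.371). The call rests on NC replicate 2, without which the log2 fold change was 1.99 (SE 2.11). It was also lost without vehicle replicate 2 or 3 or without DPI replicate 1, 2 or 4, with an unadjusted p of 0.0519 to 0.119 in the edgeR fit. Without NC replicate 2, which held all Itgb3 counts of that group, Itgb3 passed as higher with HFD (unadjusted p = 0.00243, adjusted p = 0.0516, edgeR), against the 0 counts of NC replicate 1. So 1 of the 3 tested members was called lower and none higher, where 4.63% of all genes tested were lower and 7.03% higher, and 0.0614% passed the adjustment. These shares rest on both NC libraries: without NC replicate 2 the calls rose from 1329 to 2634 and the adjusted calls from 7 to 568. Clec1b was the member among 1479 genes with an unadjusted p under 0.05. Scaling by library totals in place of TMM factors gave a median over all genes of -0.26 against 0.03 on the log2 scale, with 36.6% of calls higher against 60.3%, and put Itgb3 at -0.0050.

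The effect of DPI in HFD-fed mice was asked next. Pf4 differed by a log2 fold change of 0.89 (SE 1.04), Clec1b by 1.55 (SE 1.31) and Itgb3 by -0.77 (SE 1.09). None of these passed, with an adjusted p of 0.999 for each in the same edgeR fit. All 3 standard errors were larger than or close to the differences, so changes of about that size were not detectable with these libraries. With a library left out, the log2 fold change of Pf4 ranged from 0.31 without vehicle replicate 3 to 2.34 without vehicle replicate 1, and it was 0.45 without DPI replicate 1 and 1.96 with the replicate number as a block. That of Clec1b ranged from 1.02 without vehicle replicate 2 to 3.66 without vehicle replicate 1, and that of Itgb3 from -1.25 without DPI replicate 1 to -0.46 without DPI replicate 3. None of these passed. No member was called at the study's threshold, where 1.5% of genes were higher and 1.34% lower, and 0% passed the adjustment in edgeR, against 470 genes with an unadjusted p under 0.05 and 2 adjusted calls by DESeq2. The 324 calls became 187 without vehicle replicate 1, 210 without vehicle replicate 3, 213 without DPI replicate 1, 521 without vehicle replicate 2, and 543 and 542 without NC replicates 1 and 2. Of the calls 52.8% were higher, and 66.0% when libraries were scaled by their totals, 32.2% when 10 counts were required in every library, 39.3% in a fit of the 2 groups only and 37.4% with the replicate number as a block. Fitted without the filter on low counts, Ppbp was higher with DPI (unadjusted p = 0.0497, edgeR) and Gp1ba lower (unadjusted p = 0.0318, edgeR), Ppbp mostly on the 39 counts of DPI replicate 4 and Gp1ba on the 10 counts of vehicle replicate 2, and neither passed the adjustment (adjusted p = 0.974 for both).

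DPI-treated HFD-fed mice were also set against NC, a comparison that shares its libraries with the other two. Pf4 differed by a log2 fold change of -0.18 (SE 1.14), Clec1b by -1.82 (SE 1.31) and Itgb3 by -0.51 (SE 1.23), with adjusted p = 0.974, 0.644 and 0.917 in edgeR's quasi-likelihood test. No tested member was called, where 6.24% of genes were higher, 3.05% lower and 0.00878% past the adjustment, and 1224 had an unadjusted p under 0.05. Without NC replicate 2 there were 2626 calls against 1058, and 572 adjusted calls against 1. Of the calls 67.2% were higher, and 46.7% with library totals or 46.5% with 10 counts required in every library. Without the filter on low counts, Gp1ba was lower (unadjusted p = 0.00595, adjusted p = 0.302, edgeR) on the 39 counts of NC replicate 2. Without NC replicate 1, Clec1b passed the study's threshold as lower (log2 fold change -2.78, SE 1.10, adjusted p = 0.398, edgeR), and without NC replicate 2 its value was 3.55 (SE 2.24). Without NC replicate 2, Pf4 was at 1.04 (SE 1.47), and Itgb3 passed the study's threshold as higher (unadjusted p = 0.00441, adjusted p = 0.0690, edgeR), against the 0 counts of NC replicate 1.

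**Figure D2:**
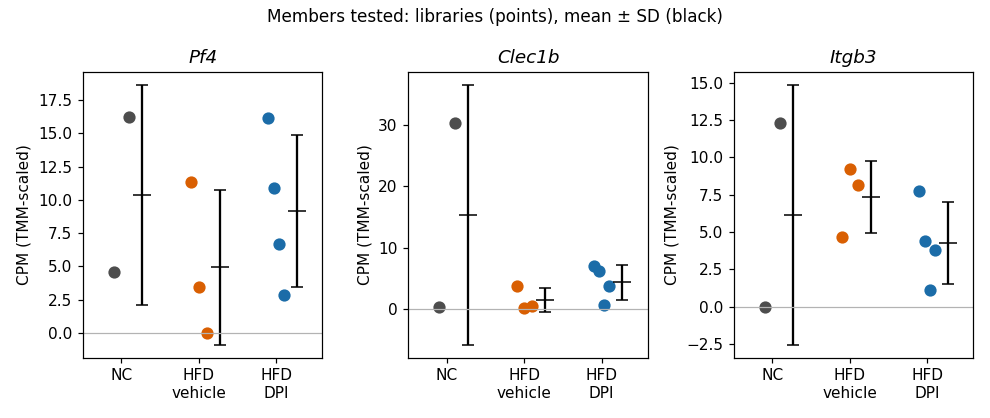
Level in CPM (linear vertical axes, scaled by TMM factors) of Pf4, Clec1b and Itgb3, with 1 point per library in NC (n = 2), HFD vehicle (n = 3) and HFD DPI (n = 4), and the group mean with its SD in black, which reaches below 0 where 1 library sets the spread. Groups overlapped for Pf4, and for Clec1b NC replicate 2 at 30.4 CPM stood above every other library.

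Other genes of platelet biology gave mixed results. Of 21 such genes, 16 were tested. In HFD vehicle against NC 3 of the 16 were lower at the study's threshold, where 4.63% of all genes were, and none higher, namely P2ry1, the ADP receptor P2Y1 (log2 fold change -2.12, SE 0.82), Cavin2 and Gng11, and the median of the 16 was 0.49, against 0.03 for all genes. Gng11 had 29 and 0 counts on NC and 0, 0 and 0 under vehicle. Cavin2 had 3 and 54 on NC and 0, 2 and 0 under vehicle, so most NC counts of each gene were in 1 library. In DPI against vehicle Gng11 (41, 2, 0 and 18 counts under DPI) was called higher and Vwf lower, where 1.5% and 1.34% of all genes were. The median was 0.04. Vwf encodes von Willebrand factor, which endothelial cells make too. It had 28 and 59 counts on NC, 13, 3 and 19 under vehicle, and 8, 1, 3 and 5 under DPI. Vwf fell by 2.44 on the log2 scale (SE 1.06) with DPI against vehicle and by 4.01 (SE 1.15) against NC, where P2ry1 and Nbeal2 were lower as well, so that 3 of the 16 were lower against 3.05% of all genes, and none higher. None of these calls passed the adjustment in edgeR's test. Of 7 tested endothelial genes, 4 (Kdr, Stab2, Clec4g and Cldn5) were called lower and Pecam1 higher in HFD vehicle against NC, with a median log2 fold change of -4.38. In DPI against vehicle 2 of the 7 were called higher and 6 were positive, with a median of 2.22. The endothelial list of 8 summed to 420 to 434 CPM on NC, 383 to 491 CPM under vehicle and 287 to 461 CPM under DPI, but this sum was mostly Fcgr2b, at a mean of 348 CPM. Clec4g averaged 82.3, 0.577 and 23.7 CPM in the 3 groups and Stab2 44.9, 0.720 and 15.7 CPM. The part of endothelial cells in the Vwf values was not tested.

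Defining platelet transcripts outside the chosen 10 were at or near 0. Gp6, the collagen receptor, Nrgn and Mmrn1 had no count in any library, and Gp5 had 1. Selp, the gene of P-selectin, had 44 counts in DPI replicate 4 and at most 15 elsewhere, and F2rl2, a thrombin receptor, had 55 there and at most 12 elsewhere. Thbs1, the most abundant gene of that list and one that monocytes also make, had 12059 counts in DPI replicate 4.

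Among megakaryocyte transcription factors, Gata1, the factor that drives the lineage, had no count in any library and Tal1 had 1. Fli1, Runx1 and Nfe2, which other blood cells also use, were counted in every library, with lowest counts of 186, 94 and 114. Gfi1b was at 0 in both NC libraries and in DPI replicate 2, and it was called higher with HFD vehicle (18, 13 and 1 counts) and with DPI (39, 0, 14 and 36 counts) against NC. It was the single gene of the 4 tested on this list to be called, where 7.03% and 6.24% of all genes were called higher in these comparisons, and in DPI against vehicle none of the 4 was.

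Ligands and partners of the members gave few calls. Of 8 genes 6 were tested, and 5 of the 6 had a negative log2 fold change in HFD vehicle against NC, with a median of -1.60. Fga, Fgb and Fgg are made by hepatocytes, and all 6 hepatocyte genes listed were negative as well, with a median of -2.58 and 3 called lower, against 4.63% of all genes. The hepatocyte genes summed to 113 to 188 CPM on NC, 17.9 to 46.3 CPM under vehicle and 33.1 to 82.4 CPM under DPI, and their part in the fibrinogen values was not tested. None of the 6 ligands and partners was called there, Vwf was lower in DPI against vehicle, where 1.34% of all genes were, and Vwf and Fgb, the fibrinogen beta chain, were lower in DPI against NC, where 3.05% were. Pdpn, the ligand of CLEC-2, had 6 and 5 counts in vehicle replicates 1 and 2, 3 and 5 in DPI replicates 1 and 4, and 0 elsewhere. Cxcr3, a receptor for CXCL4, had 0 and 76 counts on NC, 41, 24 and 8 under vehicle, and 160, 34, 55 and 1 under DPI. The other CXC chemokine genes near Pf4 on chromosome 5 (Cxcl1, Cxcl2, Cxcl3 and Cxcl5) were all tested and none was called in any comparison. Cxcl2 was highest in DPI replicate 4, with 5708 counts, where Pf4 had 28.

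Whether Pf4 followed platelet or macrophage genes was then asked over the 9 libraries, on log2 CPM with a prior count of 2. With the summed level of the other 9 members, Pf4 had a Pearson r of 0.25 (Spearman's rho 0.50), which was 0.05 without the 2 libraries farthest from the median of that sum. Clec1b and Itgb3 together made up the larger part of that sum in 7 of the 9 libraries. With the sum of the 7 untested members alone, r was 0.02 (rho 0.25). With the 14 general macrophage genes summed, r was 0.40 (rho 0.35), and 0.66 without the 2 farthest libraries. This sum was mostly Lyz2, with a mean of 22961 CPM and an r of its own of 0.40. With the resident macrophage genes summed, r was 0.52 (rho 0.62), and 0.21 without the 2 farthest. Within the 7 HFD libraries alone, r was 0.05, 0.41 and 0.47 for the other members, the general and the resident macrophage genes. With the genes' log2 CPM averaged in place of a sum, r was 0.29, 0.60 and 0.67 for the same lists. With each library centred on its group mean, r was 0.29, 0.28 and 0.34, and the lists were no longer in that order. Jackknife standard errors of the summed values over libraries were 0.30, 0.27 and 0.20, and the 3 values differed from each other by less than the largest of these errors. The r of Pf4 with the log2 total count of a library was 0.13 (rho -0.22).

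Gene by gene, the platelet members did not rise and fall with Pf4 as a set. The r with Pf4 was -0.11 for Ppbp, -0.42 for Itga2b, 0.36 for Gp9, -0.14 for Gp1bb, 0.24 for Gp1ba and 0.10 for Treml1, all in sparse counts, and -0.01 for Itgb3. Clec1b alone among the members reached 0.61 (rho 0.72, 0.63 without the 2 farthest libraries, exact permutation p = 0.0663, adjusted p = 0.929 over 11392 genes). Clec1b in turn had an r of 0.91 with the KC gene Clec4f (rho 0.90, 0.81 without the 2 farthest), 0.71 with Timd4, 0.62 with Cd5l, 0.52 with the endothelial gene Stab2, 0.35 with Vsig4, 0.27 with Emr1, 0.17 with Ppbp, -0.12 with Itga2b and -0.57 with Csf1r, so its values with macrophage genes ran in both directions.

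Several macrophage genes lay higher in the order of likeness to Pf4. The r was 0.78 for Cd5l, a KC gene that encodes a secreted scavenger protein (rho 0.76, 0.68 without the 2 farthest libraries, exact permutation p = 0.00499). It was 0.73 for Clec4f (rho 0.92, 0.87 without the 2 farthest, exact permutation p = 0.0143). The complement genes C1qa and C1qb, made by macrophages, had 0.73 each, and Lyve1, a receptor of tissue-resident macrophages and lymphatic endothelium, had 0.67. After Benjamini-Hochberg adjustment over all 11392 genes compared with Pf4, no gene passed, with adjusted p = 0.879 for Cd5l and 0.929 for Clec4f by the exact permutation test, against 568 genes with an unadjusted p under 0.05. The 4 libraries with the highest Pf4 in CPM, namely NC replicate 2, DPI replicate 1, vehicle replicate 1 and DPI replicate 2, were also the 4 with the highest Clec4f.

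**Figure D3:**
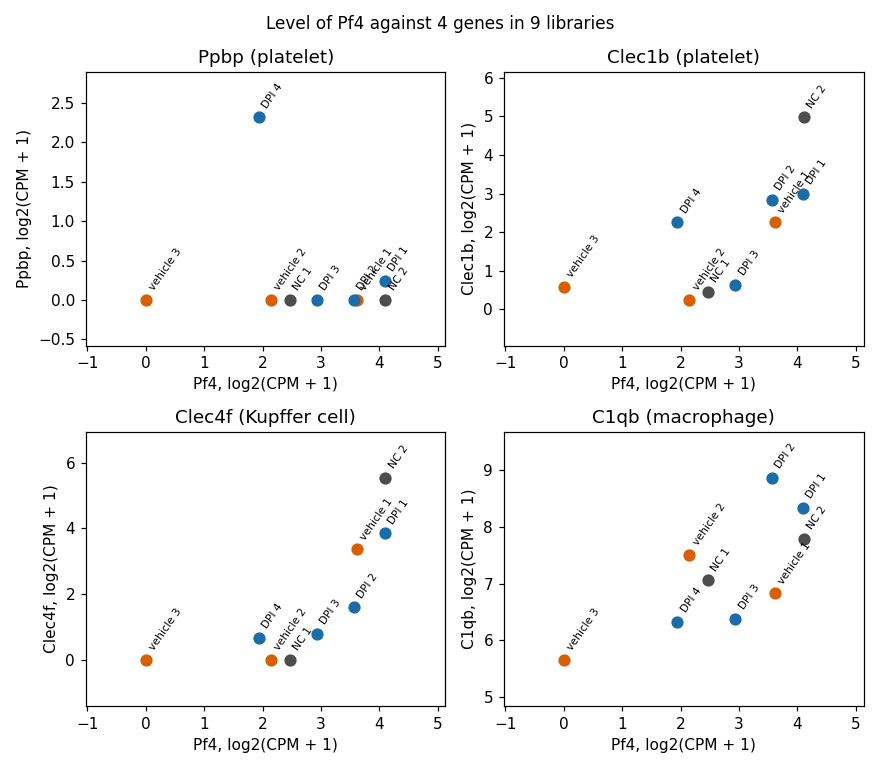
Level of Pf4 (horizontal axes) against Ppbp, Clec1b, Clec4f and C1qb (vertical axes), all in log2 of CPM plus 1, with 1 labelled point per library (grey NC, orange HFD vehicle, blue HFD DPI). Ppbp lies at 0 along the range of Pf4 except in DPI replicates 1 and 4, while the r of Pf4 was 0.61 with Clec1b, 0.73 with Clec4f and 0.73 with C1qb.

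By list, the median r with Pf4 was 0.50 over 9 resident macrophage genes, 8 of which were positive, and 0.28 over 14 general macrophage genes, 9 of which were positive. It was -0.07 over the 16 other platelet genes, 8 of them positive, -0.17 over 4 megakaryocyte transcription factors and -0.02 over all genes. Positive medians were not limited to macrophage lists, with 0.33 over 6 hepatocyte genes, all positive, 0.30 over 7 endothelial genes, 6 of them positive, and 0.24 over 3 eosinophil genes. The 8 tested KC genes were divided, with a median of 0.02 and a range from -0.47 to 0.78. Platelet genes were divided as well, with P2ry1 at 0.74, and Tmem40 at -0.78 and Thbs1 at -0.64 at the other end. Csf1r, the macrophage growth factor receptor, had an r of -0.10, and Emr1, the gene of F4/80 used in the sort, 0.55. Points within a list share the same 9 libraries, so the medians describe these libraries.

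**Figure D4:**
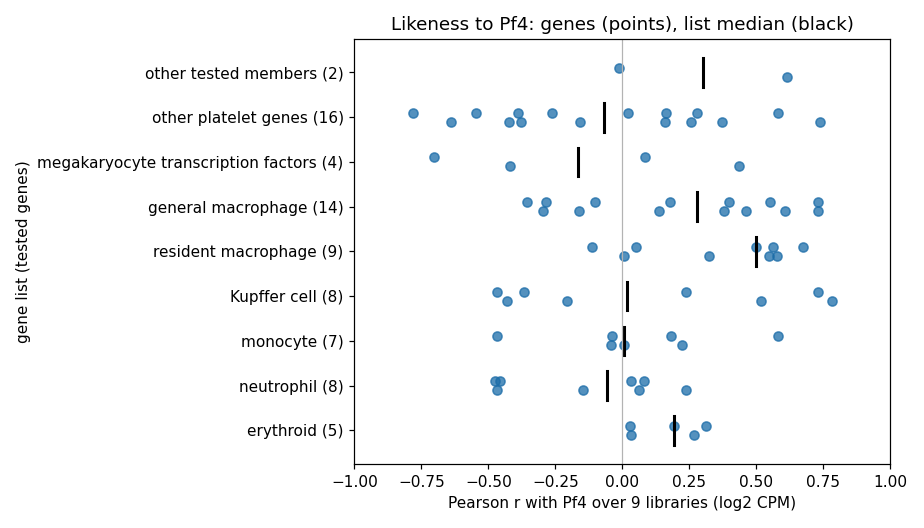
Pearson r with Pf4 over 9 libraries (horizontal axis, no unit) for each tested gene (point) of 9 gene lists, with the median of each list as a black bar and the number of genes in parentheses. The resident macrophage genes have a median of 0.50, the other platelet genes -0.07, and both lists spread widely.

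The genes most like Pf4 by r were not platelet or macrophage markers. They were Rnu12, the RNA of a minor spliceosome particle, and Creld1 at 0.97 each, and Dhrs4, Ap1m1 and Herc2 at 0.95 each, all lowest in vehicle replicate 3, where Pf4 was at 0. The 5 genes most like Ppbp (9130221F21Rik, Ube2h, Rbak, Mfsd10 and Tcf12) had r between 0.86 and 0.89 and were highest in DPI replicate 4. None of these passed adjustment over all genes, with a smallest adjusted p of 0.330 for Pf4 by the exact permutation test. For Ppbp, counted in only 2 libraries, that test can give no p below 0.0139, so no gene could be expected to pass.

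The macrophage lists were compared between groups for reference. Of 9 tested resident macrophage genes 2 were lower with HFD vehicle against NC at the study's threshold, where 4.63% of all genes were (Stab1, and Selenop, which encodes a selenium transport protein), with a median log2 fold change of -1.39, where Pf4 had -1.07. In DPI against vehicle none was called and the median was 0.98, where Pf4 had 0.89, and in DPI against NC the median was -0.20 with no call, where Pf4 had -0.18. The hepatocyte genes had medians of -2.58, 0.69 and -1.55 in the same order, and the endothelial genes -4.38, 2.22 and -1.51, of the same signs as Pf4. The KC genes had 0.60, -0.73 and -0.33. The general macrophage genes had -0.14, 0.0058 and 0.16, the last of the opposite sign to Pf4. Of 14 general macrophage genes 2 were lower with HFD (C1qa and Adgre1) and 1 higher, against 4.63% and 7.03% of all genes, while C1qa and C1qc were higher with DPI against vehicle, where 1.5% of all genes were. Of 8 tested KC genes Id3 was higher with HFD vehicle and with DPI against NC, against 7.03% and 6.24% of all genes, and Spic lower with DPI against vehicle, against 1.34%. These 3 comparisons share libraries, and none of these calls passed the adjustment in edgeR's test. The value of a gene in DPI against NC follows from its values in the other comparisons, so it is no separate match. The Pf4 values had SEs of 1.20, 1.04 and 1.14 in the order given.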

How the data were processed

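Conditions and replicates were taken from the sample labels. The deposited values are raw counts per gene that the authors obtained from poly(A) RNA libraries aligned to mm10 with bowtie2 and RSEM; the processing notes list TopHat2 and edgeR. All columns were mapped to a library. The test was edgeR's (version 4.0.16, R 4.3.3; filterByExpr, TMM factors, glmQLFit over 3 groups), with Benjamini-Hochberg adjustment over 11393 genes. The standard error is the log2 fold change divided by the root of F. Levels are CPM, per kb of exons from GENCODE M21. Likeness to Pf4 is Pearson's r with an exact two-sided permutation p over the 362880 orders of 9 libraries. Alternatives included DESeq2 1.42.0. Scripts were tested on simulated data. The members and gene lists were chosen with earlier results of these data known. Genes were named if they were members, among the 5 most like Pf4 or Ppbp, or among the most abundant of a list, and others named for a call, an extreme value or an overlap were chosen after their values were seen. Itgav, Sept5 and Clec9a were added after the data were seen. Depth was 3534325 to 15585775 counts, so 3 counts were 0.184 to 1.02 CPM. The labels name no batches, while the paper drew the mice from a feeding study made up of several independent experiments. Which experiment each mouse came from is not given. The p-values measure the spread between these libraries, which can include differences between experiments.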

Additional observations from a re-analysis of the deposited data

Results flagged for a closer look

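Within the 4 DPI libraries, the gap between an extreme library and its nearest neighbour was compared with the whole range for each of 8 genes with counts, and 3 stood out. For Ppbp, DPI replicate 4 (39 counts) was separated by 0.954 of the range. For Gp1bb, DPI replicate 4 (11 counts) was separated by 1.0 of the range, the other 3 libraries being at 0. For Treml1, DPI replicate 2 (3 counts) was separated by 1.0 of the range, also above 3 libraries at 0, and its count is no more than the smallest number told apart from none. For continuous values chance flags about 1 in 20 such groups. With 3 of 4 libraries at 0 the value is 1.0 whatever the remaining count, so this rate does not hold for sparse counts, and nothing is read from the number of flags.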

How the results depend on the processing

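No alternative changed the direction of Pf4, Clec1b or Itgb3 in DPI against vehicle or of the 3 summed correlations with Pf4, while several reversed against NC. With a library left out, r ranged from 0.03 to 0.47 for the summed platelet members, from 0.24 to 0.62 for the general and from 0.43 to 0.65 for the resident macrophage genes. Leaving out 1 library in turn, the log2 fold change in HFD vehicle against NC ranged from -2.48 to 0.14 for Pf4, from -5.44 to 1.99 for Clec1b and from -0.73 to 8.64 for Itgb3, and in DPI against NC from -0.81 to 1.04, from -2.78 to 3.55 and from -1.50 to 7.87. The highest value of each came without NC replicate 2, where the lone NC library was assumed to vary like the other groups. Scaling by library totals gave -0.0050 for Itgb3 in HFD vehicle against NC. With the replicate number as a block, Pf4 was at 0.86 and Itgb3 at 0.57 in DPI against NC. The numbers do not pair mice, since same-numbered deviations correlated by -0.022 to 0.084. Members called in HFD vehicle against NC were 0 with at least 10 counts required in every library (which left no tested member), in the fit of the 2 groups only and with the block, and 0 to 1 with a library left out. In DPI against vehicle 2 were called with no filter on low counts, and 0 to 1 with a library left out (1 without NC replicate 1). In DPI against NC the counts were 1 with no filter and 0 to 2. Over all genes, requiring 10 counts gave 726, 202 and 527 calls in the 3 comparisons, against 1329, 324 and 1058, leaving out NC replicate 2 gave 2634 in HFD vehicle and 2626 in DPI against NC, no filter gave 602 in DPI against vehicle, and DESeq2 gave 312, 2 and 212 adjusted calls against 7, 0 and 1. The cause was not tested. At 3 counts, the limit of detection was 0.184 to 1.02 CPM.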
